A study of Sus scrofa with 22 samples.

Results

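Forkhead (FOX) genes were followed across pig fetuses and blastocysts made by cloning (somatic cell nuclear transfer) or by fertilization. The family was taken as every gene whose symbol is FOX with a letter from A to S and a number. Of 43 such genes in the pig annotation, 23 had transcript records that could be matched, among 14389 matched genes in all. The other 20 were not analysed here, among them FOXC2, FOXD3, FOXF1, FOXO1 and FOXP1. All annotated transcripts of 13 members were matched, but FOXN3 was read from 1 of 19 transcripts, FOXP2 from 1 of 16, FOXS1 from 1 of 7, FOXO3 from 1 of 4, FOXM1 from 3 of 6, and FOXK2 and FOXN2 from 3 of 4 each, so their levels may be incomplete.

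Forkhead proteins are transcription factors that bind DNA through a winged-helix domain. The FOXA proteins can open closed chromatin ahead of other factors and are needed for endoderm, FOXO proteins are kept out of the nucleus by insulin and AKT signalling, and FOXM1 drives genes of mitosis. Many other members mark 1 embryonic territory each, such as FOXE1 in the thyroid primordium and FOXJ1 in cells that build motile cilia.

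Body tissue was sequenced from fetuses at day 30 and day 35. Each day is represented by 2 libraries titled abnormal and 3 titled normal, read here as clones from the design text, and by 2 from natural fertilization (NF). Blastocysts after 6 days in vitro gave 2 libraries each of XIST-KO, WT+Kdm4A and WT, clones labelled male, and of IVF (fertilized, both sexes pooled). XIST is the RNA that starts X chromosome silencing and Kdm4A is a histone demethylase; how the knockout and the Kdm4A treatment were made, and from which donor cells, is not stated in the labels. All fetus libraries are labelled male except day 30 NF replicate 2, labelled female. Whether replicates came from separate animals or cultures is not stated, so p-values measure the spread between these libraries, which may be technical.

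Expected counts per library ranged over 0.59 to 11.54 M for fetuses and 6.45 to 20.35 M for embryos. Day 35 abnormal replicate 2 stood apart: it was the shallowest, and its gene counts had a rank correlation (Spearman, across genes) of 0.789 with day 35 abnormal replicate 1, against 0.889 to 0.908 with the 4 NF libraries. Across 10 matched markers of cultured fibroblasts, the summed level was 33830 CPM (counts scaled to library size) in that library and 23980 to 33310 CPM in NF fetuses, against 7241 to 15410 CPM in the other 9 fetus libraries. Its floor of 3 counts was 8.09 CPM, so an absence there was not detectable for most members. EIF1AY, a Y-linked gene, had no count in both day 35 abnormal libraries and in day 30 NF replicate 1, all labelled male, and 61 to 220 counts in the other 11 fetus libraries, day 30 NF replicate 2 included. The counts of members called between groups at day 35 are therefore given with and without replicate 2. Values of some single genes and lists at day 35 are given with both abnormal libraries only. What the Y-linked difference contributes was not tested.

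Of all gene counts, forkhead genes took 0.055% to 0.0851% in each fetus library, compared with 0.00278% to 0.00869% in each embryo library. Fetus libraries held 16 to 20 of the 23 members above 0, and 9 in day 35 abnormal replicate 2, while embryo libraries held 4 to 10. Embryo libraries were made from cDNA and fetus libraries from total RNA, so stage and preparation cannot be told apart and no test was made between them. On the length-scaled TPM (a transcript level per length, scaled to a fixed library sum), FOXP4, FOXK2, FOXO3 and FOXC1 held the first 4 places in every fetus group except day 35 normal, where FOXO4 stood above FOXO3 and FOXC1. At day 30, FOXP4, a regulator of lung and gut epithelium, reached 62.05 ± 24.6 TPM in abnormal (SD, n = 2), 56.3 ± 9.98 TPM in normal (SD, n = 3) and 22.8 ± 3.14 TPM in NF fetuses (SD, n = 2). FOXK2, a widely expressed repressor, led in NF fetuses with 69.0 ± 1.41 TPM at day 30 and 82.3 ± 8.24 TPM at day 35 (SD, n = 2 each). In day 30 normal fetuses FOXP4, FOXC1 at 50.6 ± 8.11 TPM and FOXK2 at 50.1 ± 0.301 TPM (SD, n = 3 each) lay within their spread of each other. In embryos FOXM1, FOXK2 and FOXN3 filled the first 3 places in every group, at group means of 1.61 to 8.56 TPM.

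**Figure D1:**
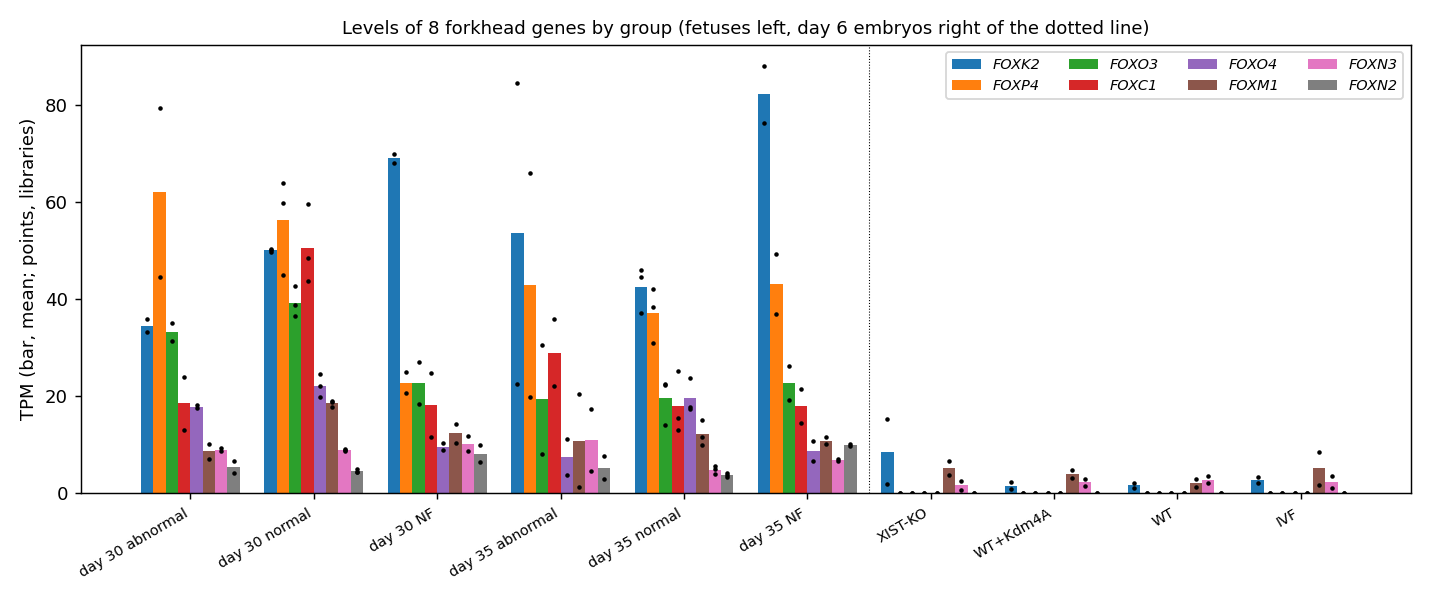
TPM (y axis, linear) of the 8 forkhead genes with the highest fetal levels in the 6 fetus groups and the 4 embryo groups; bars are group means and points are libraries. FOXP4 or FOXK2 is the tallest bar in every fetus group, and FOXP4, FOXC1, FOXO3 and FOXO4 are at or near 0 in embryos.

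In the fetuses 18 members passed the filter on low counts, and FOXH1, FOXI1, FOXI2, FOXP3 and FOXR1 did not. Each was tested in edgeR (quasi-likelihood), and a member was called at a Benjamini-Hochberg adjusted p under 0.05 over all 9911 genes tested. In day 30 abnormal against normal fetuses 2 of 18 members rose and 0 fell, where 15.4% of all genes were called (8.93% higher, 6.46% lower). Without day 35 abnormal replicate 2 in the fit, 3 rose and 1 fell there, where 31.6% of all genes were called. Without replicate 1 in its place the counts were the same, beside 31.5% of all genes, so this gain was not particular to the shallow library. In day 35 abnormal against normal fetuses 2 rose and 0 fell, where 23.2% of all genes were called (10.9% higher, 12.3% lower). Without replicate 2 the counts were 5 and 2, where 35.1% were called, and day 35 abnormal then rests on 1 library that is assumed to vary like the other groups. On log2(TPM + 1) in limma, day 35 gave 1 higher and 4 lower, and day 30 gave 2 higher and 1 lower. Normal against NF fetuses had 6 higher and 2 lower at day 30, where 29.3% of all genes were called (14% higher, 15.3% lower), and 4 higher and 0 lower on TPM. At day 35 they had 7 higher and 2 lower, where 42.3% of all genes were called (22.1% higher, 20.1% lower), and 4 higher and 2 lower on TPM. Without day 35 abnormal replicate 2 these counts were 11 members (43.2% of all genes) at day 30 and 10 members (54.8%) at day 35. Without replicate 1 in its place, 43.3% and 54.9% of all genes were called. Abnormal against NF fetuses had 7 higher and 0 lower at day 30, where 30% of all genes were called (15.5% higher, 14.5% lower). Without day 35 abnormal replicate 2 they had 9 called members there (45.3% of all genes, and 45.1% without replicate 1 in its place). At day 35 they had 3 higher and 0 lower, where 23.2% of all genes were called (13% higher, 10.2% lower), 13 called members without replicate 2 (45.9%), 0 without replicate 1, and 1 higher and 1 lower on TPM. Of the 13, FOXK2, FOXM1 and FOXN2 were lower in abnormal fetuses, and FOXA1, FOXB1, FOXC1, FOXE1, FOXL2, FOXN3, FOXO3, FOXO4, FOXP2 and FOXP4 were higher. The members' median log2 fold change was 0.45 at day 30 and 0.37 at day 35 for abnormal against normal, beside -0.02 and 0.00 over all genes. The day 35 value rested on which abnormal library was kept: it was 0.12 without replicate 2 and -2.85 without replicate 1, where members with no count in replicate 2 have fitted values that depend on the prior count. For normal against NF fetuses it was 0.47 at day 30 and 0.24 at day 35, beside 0.00 and 0.06 over all genes. With all libraries in the fit, the share of members called was below that of all genes in abnormal against normal fetuses and above it in normal against NF fetuses. With 18 members these differences amount to few genes and were not tested. Without day 35 abnormal replicate 2 the share in day 35 abnormal against normal fetuses was close to that of all genes and rests on 1 abnormal library. Comparisons with NF at a day share the NF libraries, and those with normal fetuses share the normal ones.

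FOXA1 and FOXA2 had their highest levels in day 30 abnormal fetuses. FOXA2 (chr17:29997397-30001704, Sscrofa11.1), a pioneer factor of endoderm, notochord and floor plate, had 8.30 and 15.4 CPM in day 30 abnormal fetuses, 0.913, 1.93 and 2.21 CPM in day 30 normal fetuses, and 0 and 0.409 CPM in NF fetuses. The 3 groups did not overlap. FOXA2 rose in abnormal against normal fetuses at day 30 (log2 fold change 2.81 ± 0.70 SE, adjusted p = 0.02199, edgeR). This call was lost on leaving out day 30 abnormal replicate 2 or any of the 3 day 30 normal libraries, with log2 fold changes of 2.30 to 3.19 over all libraries left out. At day 35 the order of the cloned groups differed. FOXA2 had 0 and 1.15 CPM in day 35 abnormal fetuses, 3.65, 6.91 and 7.40 CPM in day 35 normal fetuses, and 0 and 0.171 CPM in NF fetuses. Abnormal fetuses lay below all normal ones, but the floor in replicate 2 is above every normal value, and the difference was not called. The day 35 effect minus the day 30 effect was -5.44 ± 1.23 SE on the log2 scale (adjusted p = 0.0365, edgeR interaction term), where 4.05% of all genes were called (1.31% higher, 2.73% lower), 11.3% without day 35 abnormal replicate 2. That call was lost on leaving out either day 30 abnormal library or any normal library of either day, with values of -10.62 to -4.89.

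FOXA2 was also higher in normal than in NF fetuses. At day 35 normal fetuses had 95 FOXA2 counts in all and NF fetuses 1, a pooled ratio of 71.4 with a 95% exact counting interval of 12.5 to 2850 (adjusted p = 0.001799, edgeR). At day 30 the ratio was 7.46 (2.29 to 38.5, adjusted p = 0.04293, edgeR), and that call was lost on leaving out either day 30 abnormal library, day 30 normal replicate 1 or 3, day 30 NF replicate 2 or any day 35 normal library (log2 fold change 1.95 to 5.92). For day 30 abnormal against NF fetuses the ratio was 55.0 (17.9 to 275, adjusted p = 0.003282, edgeR). The day 35 normal call and the day 30 abnormal call against NF held with each library left out and under each other setting that gave a value; records matched with version hold no FOXA1, FOXA2, FOXB1, FOXE1 or FOXN2. These intervals cover counting error only.

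FOXA1 (chr7:62471233-62479638), the closest relative of FOXA2, had 16.6 and 23.5 CPM in abnormal, 7.196, 7.31 and 9.89 CPM in normal, and 0.915 and 1.91 CPM in NF fetuses at day 30. At day 35 it had 0 and 6.14 CPM in abnormal, 7.76, 13.8 and 14.8 CPM in normal, and 0 and 1.54 CPM in NF fetuses. It did not pass the test between abnormal and normal fetuses at either day, although those libraries did not overlap. At day 35 the abnormal value of 0 is that of replicate 2, whose floor lies above the lowest normal value. FOXA1 was higher in normal than in NF fetuses at day 35 (3.93 ± 0.91 SE, adjusted p = 0.00569, edgeR), a call that held under every setting that tested the gene. At day 30 it was higher in abnormal than in NF fetuses (3.79 ± 0.89 SE, adjusted p = 0.01108) and in normal than in NF fetuses (2.49 ± 0.82 SE, adjusted p = 0.04089, both edgeR). The first was lost without day 30 abnormal replicate 2 or NF replicate 2 (3.53 and 3.36), and the second without any library of day 30 or any day 35 normal library (2.07 to 3.12). FOXA3, which acts in liver and gut, had 1.21 to 3.93 CPM in the 7 day 30 libraries and 0 to 6.67 CPM in the 7 day 35 libraries, and was not called in any comparison.

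Genes that work with FOXA factors in endoderm were given by a list of 17, of which 15 were tested. At day 30, 7 of the 15 rose and 0 fell in abnormal against normal fetuses, where 15.4% of all genes were called. Their median log2 fold change was 2.58, beside -0.02 over all genes. GATA4, a zinc-finger factor of endoderm and heart, averaged 86.5 CPM in abnormal and 0.0507 CPM in normal fetuses (log2 fold change 9.94 ± 1.04 SE, adjusted p = 0.000394, edgeR). AFP, an early liver and yolk sac protein, had 0.874 and 455 CPM in abnormal fetuses and 0, 1.48 and 2.17 CPM in normal fetuses, so the groups overlapped and replicate 2 alone was high. At day 35, where 23.2% of all genes were called, 3 of the 15 rose and 3 fell. Among them HNF4A, a liver and gut regulator, was not detected in abnormal fetuses and averaged 18.1 CPM in normal fetuses, at least 17.96-fold lower in abnormal taking 3 counts summed over the group as the floor (adjusted p = 0.001754, edgeR). In day 35 normal against NF fetuses 5 of 15 rose and 0 fell, beside 42.3% of all genes called. Without day 35 abnormal replicate 2 the counts were 8 and 1, beside 54.8%. HNF4A was again among the 5, with 18.1 and 0.433 CPM. SHH, the hedgehog ligand of notochord, floor plate and gut, had 14.4 and 17.5 CPM in day 30 abnormal, 7.46, 8.67 and 10.4 CPM in day 30 normal, and 0.273 and 0.457 CPM in day 30 NF fetuses. It fell in abnormal against normal fetuses at day 35, with 0 and 0.767 CPM against 5.48, 8.09 and 8.57 CPM (-3.46 ± 0.73 SE, adjusted p = 0.007233, edgeR), and without replicate 2 the hedgehog list held the same number of calls, 4 of 9 lower and 0 higher.

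Marker sums of some other tissues also differed between day 30 abnormal and normal fetuses, but the liver sum was not high in both abnormal libraries. The 11 matched genes of the inner cell mass and trophectoderm came from a blastocyst list led by KRT8. Their summed level was 2284 to 2908 CPM in day 30 abnormal and 266 to 329 CPM in day 30 normal fetuses. The 8 matched liver genes summed to 48.5 and 1945 CPM in abnormal and 73.7 to 105 CPM in normal fetuses. POU5F1, the defining gene of the inner cell mass, had no count in any of these 5 libraries. The 8 matched neuron markers summed to 643 and 736 CPM in day 30 abnormal and 2312 to 2942 CPM in day 30 normal fetuses. In bulk tissue fewer cells of a type and less RNA per cell cannot be told apart, and the part of these tissues in the FOXA values was not tested.

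**Figure D2:**
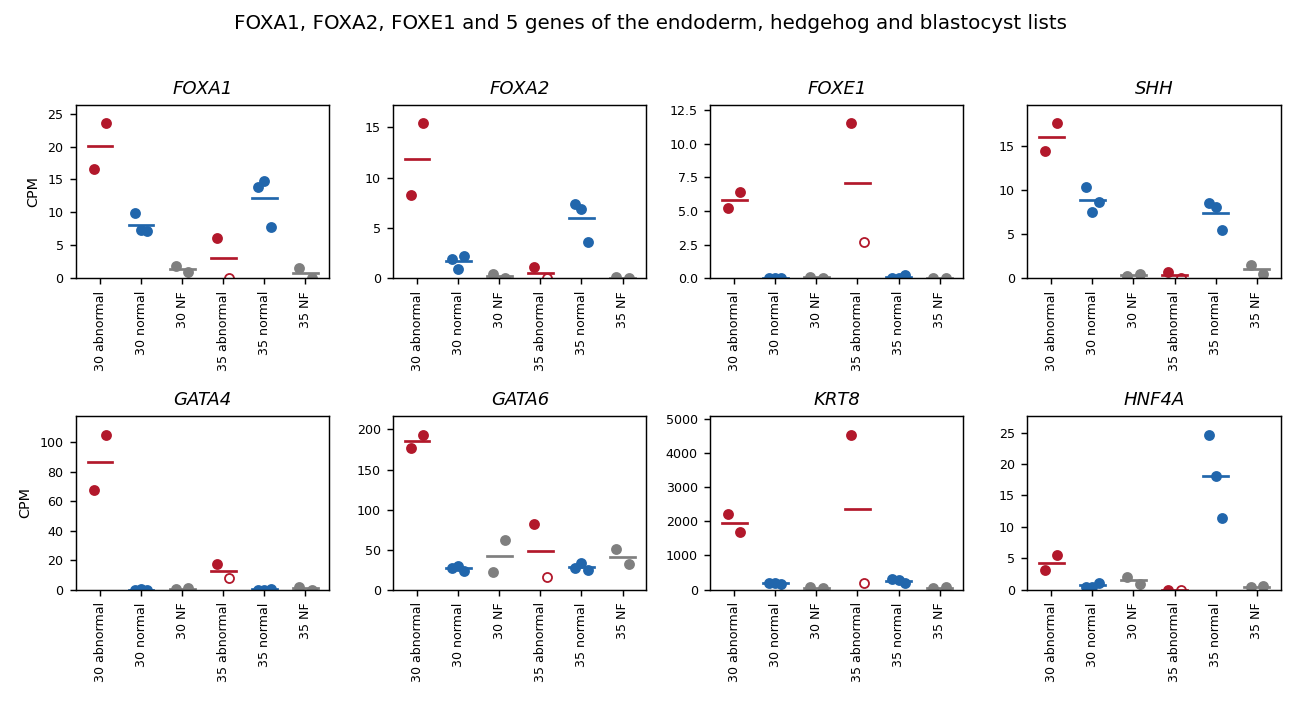
CPM (y axes, linear, from 0) of FOXA1, FOXA2, FOXE1 and of 5 genes from the endoderm, hedgehog and blastocyst lists in each fetus library, by day and group; lines are group means and the open circle is day 35 abnormal replicate 2. FOXA1 and FOXA2 are higher in abnormal than normal fetuses at day 30, where only FOXA2 was called. At day 35 they lie lower in abnormal fetuses without a call, and replicate 2, with no count of either, is too shallow to show an absence. SHH is at 5.48 CPM or more in normal fetuses of both days, and FOXE1 is above 1 CPM in abnormal fetuses of either day only.

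FOXE1 (chr1:239727769-239732461), a factor of thyroid and palate development, was, among fetuses, found mainly in the abnormal group. It had 5.24 and 6.41 CPM in day 30 abnormal fetuses, no count in the 3 day 30 normal fetuses, and 0 and 0.137 CPM in NF fetuses. Against the floor of 3 counts over the normal group it was at least 31.4-fold higher in abnormal fetuses (adjusted p = 0.007476, edgeR), and this call held with each library left out and under every setting that tested the gene. Day 35 libraries had 11.5 and 2.70 CPM in abnormal fetuses, 0, 0 and 0.228 CPM in normal fetuses, and no count in NF fetuses. The value of replicate 2 is 1 count, and that of the normal group is also 1 count. The pooled ratio at day 35 was 160 with a counting interval of 26.7 to 6532 (adjusted p = 0.005172, edgeR), and without abnormal replicate 1 the call was lost (adjusted p = 0.1673). Against NF fetuses FOXE1 was called at day 30 (pooled ratio 81.0, interval 13.4 to 3318, adjusted p = 0.01035) and at day 35 (at least 27.4-fold, adjusted p = 0.009247, both edgeR). The call at day 30 was lost without NF replicate 2 (adjusted p = 0.06253) and the one at day 35 without abnormal replicate 1 or NF replicate 2 (adjusted p = 0.1636 and 0.06187).

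FOXB1 (chr1:111997638-112000550), expressed in the developing hypothalamus and spinal cord of mice, separated both cloned groups from NF fetuses. At day 30 it had 6.55 and 7.27 CPM in abnormal, 4.26, 4.43 and 6.51 CPM in normal, and 0 and 0.273 CPM in NF fetuses. The day 35 level was 0 and 8.44 CPM in abnormal, 4.34, 8.29 and 9.25 CPM in normal, and 0 and 0.175 CPM in NF fetuses. Normal and NF fetuses did not overlap at either day. Abnormal and normal fetuses overlapped at day 35, and at day 30 the lowest abnormal value was just above the highest normal one, without a call. The pooled ratio of normal to NF fetuses was 34.0 at day 30 (interval 9.11 to 286, adjusted p = 0.005015) and 87.2 at day 35 (15.3 to 3473, adjusted p = 0.001646, both edgeR), and that of abnormal to NF fetuses at day 30 was 48.0 (12.3 to 414, adjusted p = 0.005688, edgeR). These 3 calls held under every setting that tested the gene. At day 35 abnormal against NF fetuses were called (adjusted p = 0.009703, edgeR) on replicate 1 alone: replicate 2 has no count, the groups overlap, and without replicate 1 the log2 fold change was -2.11. The call was also lost without either day 35 NF library.

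Neural markers differed between normal and NF fetuses. The day 30 abnormal sums of these markers, given above, lay within the range of day 30 NF fetuses. The 8 matched neuron markers summed to 3202 to 5266 CPM in day 35 normal and 486 to 507 CPM in day 35 NF fetuses, and to 2312 to 2942 and 546 to 906 CPM at day 30. All 8 rose in the day 35 comparison, where 22.1% of all genes were called higher. The part of neural tissue in the FOXB1 values was not tested.

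FOXC1 (chr7:837088-840593), a factor of somites, skull and eye, stands on chromosome 7 beside FOXF2 and FOXQ1, which were not analysed here. At day 30 it had 24.0 and 46.2 CPM in abnormal, 67.9, 76.4 and 89.2 CPM in normal, and 17.8 and 40.4 CPM in NF fetuses. On day 35 the values were 40.5 and 75.6 CPM in abnormal, 22.9, 25.1 and 41.5 CPM in normal, and 23.2 and 32.7 CPM in NF fetuses. FOXC1 thus had its highest levels in day 30 normal fetuses, and these overlapped with no other group of that day. It was higher in normal than in NF fetuses at day 30 (1.42 ± 0.42 SE, adjusted p = 0.02681, edgeR), a call lost without day 30 normal replicate 1 or 2 or NF replicate 2 (0.95 to 2.13 over the libraries left out). It fell in day 35 against day 30 normal fetuses (-1.39 ± 0.37 SE, adjusted p = 0.0396, edgeR), the only member called in that comparison, where 9.19% of all genes were called (5.35% higher, 3.84% lower). Without day 35 abnormal replicate 2, or without replicate 1 in its place, 5 members were called there (24.6% and 24.7% of all genes). The FOXC1 call was lost without any day 30 normal library, day 35 normal replicate 1 or 2, or either day 35 NF library (-1.70 to -1.22). In day 35 abnormal against normal fetuses the FOXC1 log2 fold change was 1.39 ± 0.46 SE without abnormal replicate 2. Without replicate 1 in its place it was 0.43 ± 0.71 SE, and each value rests on 1 abnormal library. Of 12 tested partners of FOXC1 and its relatives in neural crest and somites, 7 rose and 1 fell in day 30 normal against NF fetuses and 8 rose and 2 fell at day 35. Of all genes 29.3% and 42.3% were called in these comparisons. MEOX1, a somite factor, averaged 55.9 CPM in day 35 normal and 11.8 CPM in day 35 NF fetuses (2.24 ± 0.47 SE, adjusted p = 0.003614, edgeR).

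FOXS1 (chr17:35523408-35537618), known from pericytes and sensory neuron precursors in mice, ran the other way. It had no count in day 30 normal fetuses and 0.273 and 2.74 CPM in day 30 NF fetuses (adjusted p = 0.01349, edgeR). Taking 3 counts summed over the group as the floor, normal fetuses were at least 8.11-fold below the NF mean, most of which comes from NF replicate 2. At day 35 it had 0.168, 0.228 and 0.395 CPM in normal and 1.92 and 2.39 CPM in NF fetuses (-2.92 ± 0.97 SE, adjusted p = 0.03626, edgeR). Normal and NF fetuses did not overlap at either day, but at day 30 the lower NF value is below the floor of normal replicate 1, 0.7235 CPM. The call at day 30 was lost without NF replicate 2 (adjusted p = 0.1264), and that at day 35 without either day 30 abnormal library or any day 35 normal or NF library (-3.30 to -2.67). Of 10 tested markers of cultured fibroblasts 9 fell in normal against NF fetuses at day 30 and 6 at day 35, with 0 higher at either day, beside 15.3% and 20.1% of all genes called lower. Their summed level was 7241 to 9111 CPM in day 30 normal and 26840 and 33310 CPM in day 30 NF fetuses, and the part of fibroblast-like cells in the FOXS1 values was not tested.

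FOXL2 (chr13:79708693-79709825), a factor of the ovary, eyelid and pituitary, was barely detected at day 30, with 0 to 0.428 CPM in the 7 libraries. Day 35 libraries had 0 and 7.29 CPM in abnormal, 0.790, 2.02 and 2.28 CPM in normal, and 0 and 0.175 CPM in NF fetuses. Normal and NF fetuses did not overlap, with a pooled ratio of 19.5 (interval 3.21 to 801, adjusted p = 0.02739, edgeR) that was lost without day 35 normal replicate 1 or 3 or either day 35 NF library (log2 fold change 3.09 to 5.96). The call for abnormal against NF fetuses (adjusted p = 0.0158, edgeR) rested on abnormal replicate 1, turned to -2.11 on the log2 scale without it, and was lost without either day 35 NF library.

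**Figure D3:**
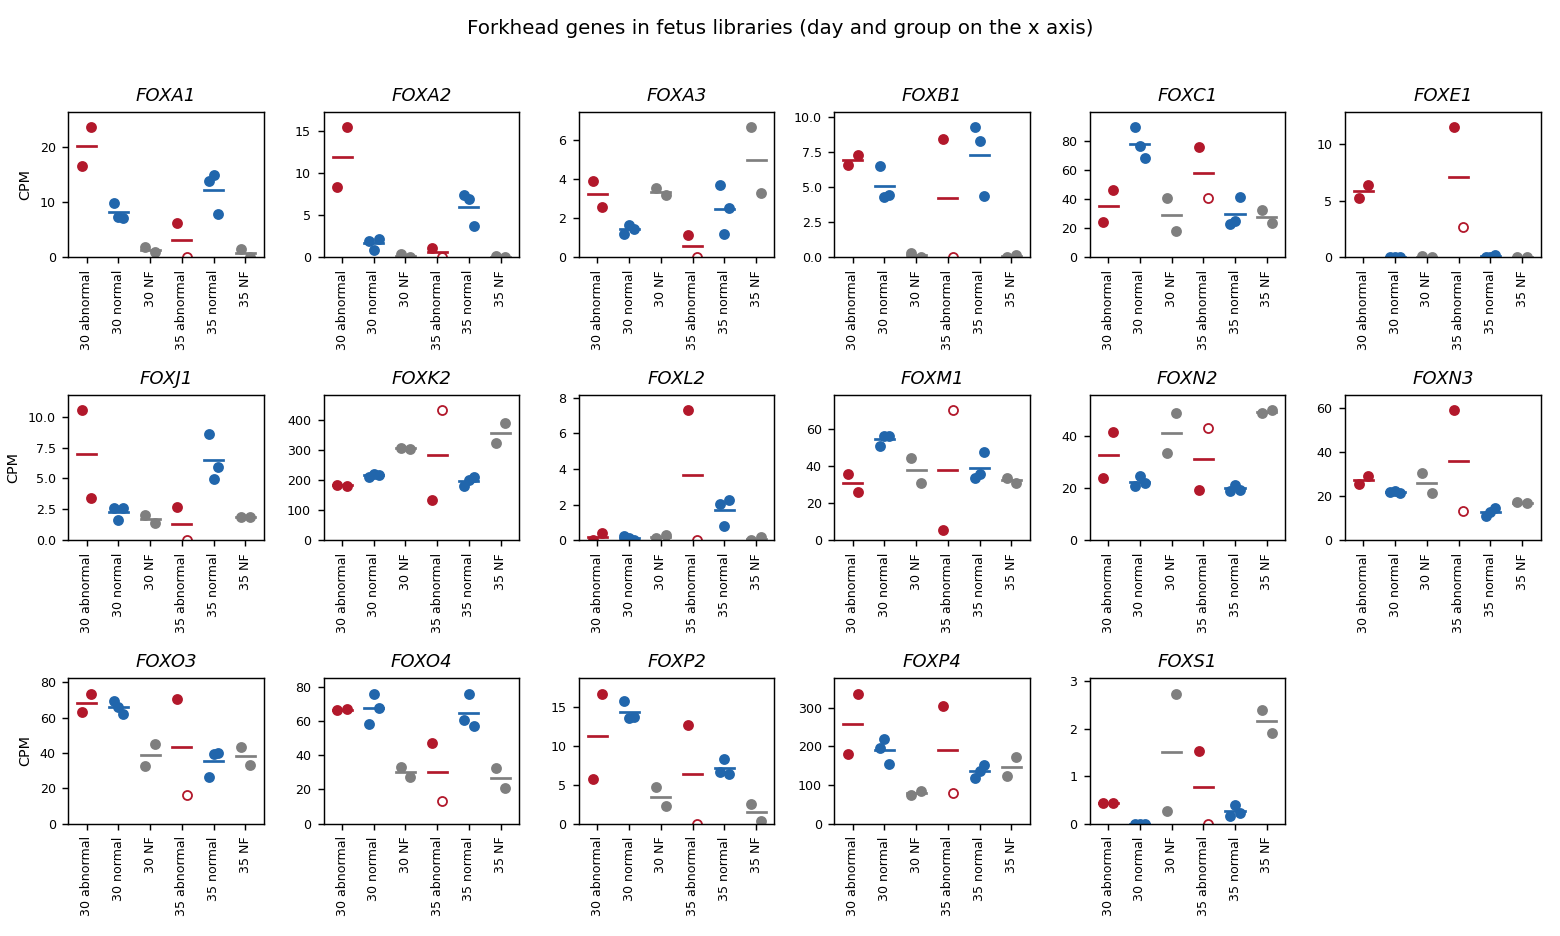
CPM (y axes, linear, from 0) of the 13 members called in at least 1 fetal comparison and of FOXA3, FOXK2, FOXM1 and FOXO3 in each fetus library, by day and group; lines are group means and the open circle is day 35 abnormal replicate 2. FOXB1, FOXA1 and FOXO4 are higher in normal than in NF fetuses at either day, and FOXN2 and FOXS1 are lower.

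FOXJ1 (chr12:5307370-5312117), the master factor of motile cilia, had 3.42 and 10.5 CPM in day 30 abnormal, 1.68, 2.58 and 2.65 CPM in day 30 normal, and 1.37 and 2.05 CPM in day 30 NF fetuses. At day 35 it had 0 and 2.69 CPM in abnormal, 4.94, 5.94 and 8.57 CPM in normal, and 1.88 and 1.92 CPM in NF fetuses. With all libraries FOXJ1 was not called between abnormal and normal fetuses or between days. With either day 35 abnormal library left out, the log2 fold change in day 30 abnormal against normal fetuses was 1.59 ± 0.51 SE. For day 35 against day 30 normal fetuses it was 1.43 ± 0.46 SE without replicate 2 and 1.44 ± 0.45 SE without replicate 1. FOXJ1 was higher in normal than in NF fetuses at day 35 (1.76 ± 0.60 SE, adjusted p = 0.03491, edgeR), without overlap. It was also higher in abnormal than in NF fetuses at day 30 (2.001 ± 0.65 SE, adjusted p = 0.03919, edgeR), again without overlap. The first call was lost without day 30 normal replicate 3, day 35 normal replicate 1 or 3 or either day 35 NF library (up to 1.92), and the second without 10 of the 14 libraries, all but day 30 abnormal replicate 2, both day 35 abnormal libraries and day 35 normal replicate 1 (1.00 to 2.60). Of 6 tested cilium genes downstream of FOXJ1, 3 rose and 0 fell in day 35 normal against NF fetuses, beside 42.3% of all genes called, and 0 of 6 were called at day 30. Among the 3, DNAI2, a dynein arm subunit, had 6.06 CPM in normal and 0.517 CPM in NF fetuses (3.48 ± 0.83 SE, adjusted p = 0.006548, edgeR).

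Of the FOXO genes, which act downstream of insulin and AKT, the X-linked FOXO4 (chrX:57132549-57140377) was higher in normal clones than in NF fetuses at both days and in abnormal clones at day 30. At day 30 FOXO4 had 66.4 and 67.1 CPM in abnormal, 58.6, 68.1 and 76.3 CPM in normal, and 27.3 and 33.2 CPM in NF fetuses. The day 35 level was 13.5 and 47.2 CPM in abnormal, 57.5, 60.5 and 76.0 CPM in normal, and 20.8 and 32.5 CPM in NF fetuses. Normal fetuses were above every NF fetus at each day, by 1.16 ± 0.32 SE on the log2 scale at day 30 (adjusted p = 0.02082) and 1.28 ± 0.33 SE at day 35 (adjusted p = 0.009665, both edgeR). The day 35 call was lost without day 35 NF replicate 2 (0.99, adjusted p = 0.1115), and the day 30 call without day 30 normal replicate 2 or 3 or either NF library (1.03 to 1.32). Abnormal fetuses were above NF fetuses at day 30 (1.14 ± 0.35 SE, adjusted p = 0.03232, edgeR), a call lost without either abnormal library, either NF library or day 30 normal replicate 3 (1.00 to 1.30). At day 35 abnormal and NF fetuses overlapped and were not called, with 0.82 ± 0.28 SE without abnormal replicate 2 (adjusted p = 0.03424) and -1.04 ± 0.54 SE without replicate 1 (adjusted p = 0.26, both edgeR). The libraries without EIF1AY counts include day 30 NF replicate 1, at 33.2 CPM, beside 27.3 CPM in NF replicate 2.

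FOXO3 (chr1:74626673-74760323), its autosomal relative, had 62.9 and 73.5 CPM in abnormal, 61.8, 66.2 and 69.5 CPM in normal, and 32.8 and 45.3 CPM in NF fetuses at day 30. On day 35 the values were 16.2 and 70.2 CPM in abnormal, 26.6, 39.5 and 40.0 CPM in normal, and 33.4 and 43.6 CPM in NF fetuses. Both cloned groups were above NF fetuses at day 30 without a call, but without day 35 abnormal replicate 2 abnormal against NF (0.81 ± 0.24 SE, adjusted p = 0.01854) and normal against NF (0.76 ± 0.22 SE, adjusted p = 0.01588, both edgeR) were called. Both were also called without replicate 1 in its place (adjusted p = 0.01868 and 0.01609, both edgeR). At day 35, without abnormal replicate 2, FOXO3 was higher in abnormal than in normal (1.03 ± 0.27 SE, adjusted p = 0.01324) and NF fetuses (0.86 ± 0.29 SE, adjusted p = 0.03087), and without replicate 1 the differences were -1.14 and -1.31 (adjusted p = 0.131 and 0.1462, all edgeR). Of 13 tested FOXO target genes 2 rose and 1 fell in day 30 abnormal against normal fetuses and 2 rose and 2 fell at day 35, beside the 15.4% and 23.2% of all genes called. These counts were 4 and 3 at day 30 and 3 and 3 at day 35 without day 35 abnormal replicate 2, beside 31.6% and 35.1%. BNIP3, a mitophagy receptor, averaged 2466 CPM in abnormal and 220 CPM in normal fetuses at day 30 (3.49 ± 0.99 SE, adjusted p = 0.0366, edgeR). CAT, catalase, fell at both days, to 100 CPM in abnormal against 175 CPM in normal fetuses at day 30 (-0.80 ± 0.19 SE, adjusted p = 0.01918) and to 95.01 CPM in abnormal against 202 CPM in normal fetuses at day 35 (-1.14 ± 0.20 SE, adjusted p = 0.003358, both edgeR). Of 9 tested genes of the insulin, PI3K and AKT input 0 were called at day 30 and 4 rose at day 35, IGF1R among them, at 177 CPM in abnormal and 82.96 CPM in normal fetuses (1.14 ± 0.25 SE, adjusted p = 0.009367, edgeR). Without replicate 2, 5 of the 9 rose and 1 fell.

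FOXP4 (chr7:36760643-36793620) had 180 and 336 CPM in abnormal, 153, 195 and 219 CPM in normal, and 73.1 and 85.1 CPM in NF fetuses at day 30, with cloned fetuses above all NF fetuses. It rose in abnormal against NF (1.71 ± 0.47 SE, adjusted p = 0.02159) and in normal against NF fetuses (1.26 ± 0.44 SE, adjusted p = 0.04998, both edgeR). The second value lies at the threshold and was lost without any library except the 2 of day 35 abnormal (1.14 to 1.39), and the first without abnormal replicate 2 or either day 30 NF library (1.19 to 2.10). At day 35 FOXP4 had 78.2 and 305 CPM in abnormal, 119, 135 and 151 CPM in normal, and 123 and 172 CPM in NF fetuses, and no call was made with both abnormal libraries. Without abnormal replicate 2, FOXP4 was higher in abnormal than in normal (1.22 ± 0.31 SE, adjusted p = 0.01164) and NF fetuses (1.04 ± 0.33 SE, adjusted p = 0.02547), and without replicate 1 the differences were -0.81 and -0.98 (adjusted p = 0.2216 and 0.2251, all edgeR). FOXP2 (chr18:31335102-31890523), a neural and lung factor, had 6.39, 6.56 and 8.29 CPM in day 35 normal and 0.349 and 2.56 CPM in day 35 NF fetuses (2.26 ± 0.83 SE, adjusted p = 0.04837, edgeR), without overlap. That call was lost without any day 30 library, any day 35 normal library or day 35 NF replicate 2 (1.45 to 4.23).

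FOXN2 (chr3:92268780-92337117) was lower in normal than in NF fetuses at both days. It had 20.7, 21.96 and 24.5 CPM in normal and 33.4 and 48.8 CPM in NF fetuses at day 30, and 19.0, 19.4 and 21.3 CPM against 48.7 and 49.8 CPM at day 35. The groups did not overlap, and the call at day 35 held under every setting that tested the gene (-1.31 ± 0.30 SE, adjusted p = 0.005301, edgeR). At day 30 the difference was -0.87 ± 0.30 SE (adjusted p = 0.04659, edgeR), lost without any normal library of either day, day 30 NF replicate 2 or either day 35 NF library (-1.11 to -0.57). Abnormal fetuses, at 24.0 and 41.5 CPM on day 30 and 19.2 and 43.2 CPM on day 35, overlapped with both other groups at day 30, and at day 35 overlapped with normal fetuses and lay below NF fetuses. FOXN3 (chr7:111036492-111454106), a checkpoint repressor, had 13.5 and 58.7 CPM in day 35 abnormal and 10.9, 12.8 and 14.8 CPM in day 35 normal fetuses. These overlap, and the call (1.68 ± 0.39 SE, adjusted p = 0.01125, edgeR) rested on replicate 1: the log2 fold change was 0.05 without it (adjusted p = 0.9419) and 2.23 ± 0.24 SE without replicate 2 (adjusted p = 8.686e-05).

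FOXM1 (chr5:67246219-67263215), the mitotic activator, had 26.1 and 35.8 CPM in day 30 abnormal, 50.9, 56.2 and 56.5 CPM in day 30 normal, and 31.1 and 44.6 CPM in day 30 NF fetuses. Day 35 libraries had 5.37 and 70.1 CPM in abnormal, 33.6, 35.9 and 47.5 CPM in normal, and 31.1 and 33.7 CPM in NF fetuses. The 2 day 35 abnormal libraries held the lowest and the highest value of all 14, and no comparison was called with both in the fit. Without replicate 2 FOXM1 fell in abnormal against normal fetuses at day 30 (-0.82 ± 0.22 SE, adjusted p = 0.01859, edgeR), and likewise without replicate 1 (-0.82 ± 0.22 SE, adjusted p = 0.01809, edgeR). At day 35 the direction turned on the library kept: the log2 fold change was -2.81 ± 0.38 SE without replicate 2 and 0.83 ± 0.33 SE without replicate 1. Of its mitotic target genes 0 of 10 were called at either day with both libraries, with medians of -1.09 at day 30 and -0.31 at day 35. Without replicate 2, 8 of these 10 target genes fell at day 30, beside 31.6% of all genes called. The medians of the target genes were then -1.09 and -2.81, and the day 35 value rests on 1 abnormal library. Their summed level was 809 and 1073 CPM in day 30 abnormal and 2205 to 2605 CPM in day 30 normal fetuses, and 143 and 1770 CPM in day 35 abnormal and 836 to 1039 CPM in day 35 normal fetuses. FOXK2 (chr12:560848-615646) had 179 and 186 CPM in day 30 abnormal, 210.5 to 219 CPM in day 30 normal, and 304 and 308 CPM in day 30 NF fetuses, without overlap or a call. Without day 35 abnormal replicate 2 in the fit it was lower in abnormal than in NF (-0.74 ± 0.12 SE, adjusted p = 0.0007048) and in normal than in NF fetuses at day 30 (-0.50 ± 0.11 SE, adjusted p = 0.003564, both edgeR). With replicate 1 left out in its place FOXK2 was called in both too (adjusted p = 0.0006884 and 0.003448, both edgeR). On day 35 it had 134 and 432 CPM in day 35 abnormal, 182, 201 and 211 CPM in day 35 normal, and 325 and 391 CPM in day 35 NF fetuses, and was again not called with both libraries. Without replicate 2 it fell in normal against NF fetuses at day 35 (-0.90 ± 0.11 SE, adjusted p = 6.254e-05) and in abnormal against normal fetuses (-0.53 ± 0.15 SE, adjusted p = 0.01733, both edgeR). Without replicate 1 in its place it rose in abnormal against normal fetuses (1.11 ± 0.14 SE, adjusted p = 0.0003884, edgeR).

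**Figure D4:**
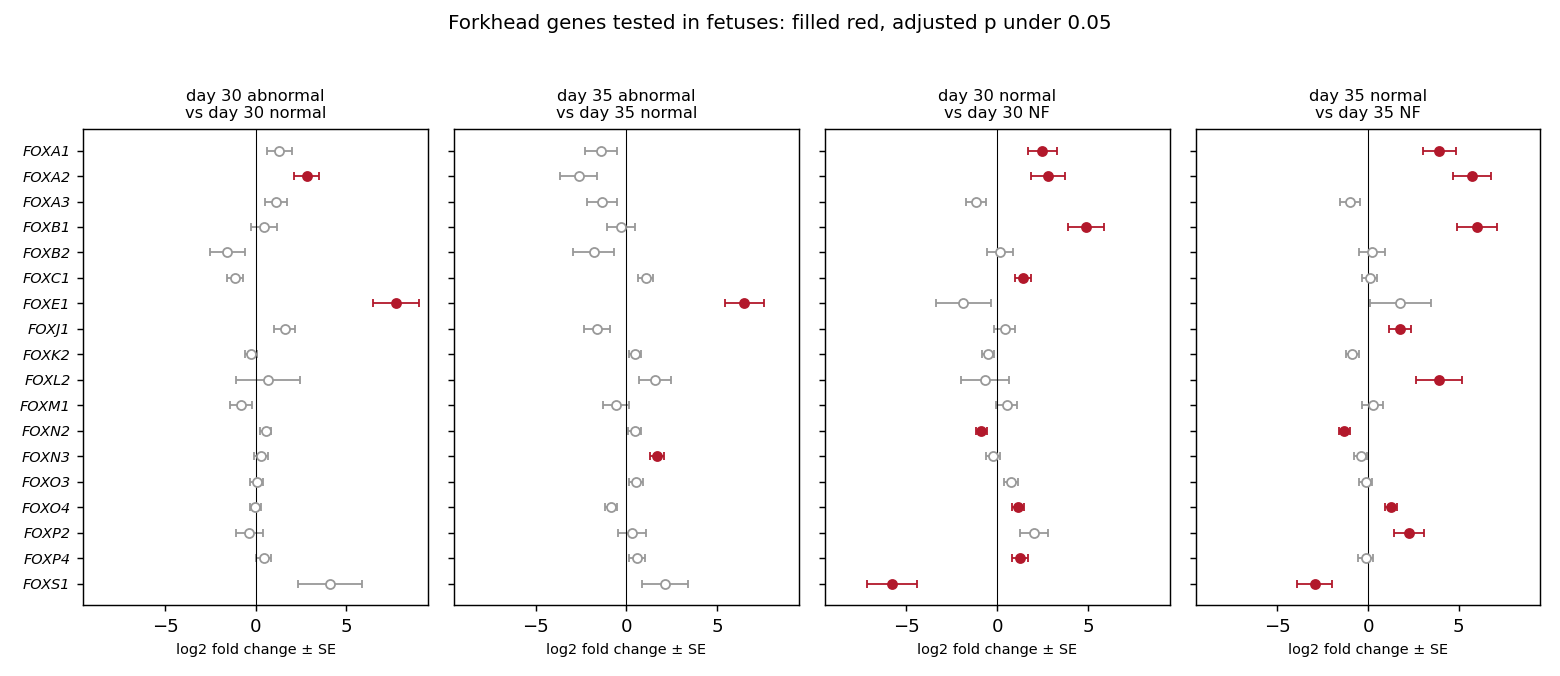
Log2 fold change with its SE (x axes) of the 18 members tested in fetuses, for abnormal against normal and normal against NF fetuses at each day; filled red points have an adjusted p under 0.05 and open grey points do not. Of the members called for normal against NF fetuses, FOXN2 and FOXS1 lie left of 0; fitted values of members with 3 counts or fewer in a group, such as FOXE1, depend on the prior count of the fit.

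Between days, 0 of 18 members were called in NF fetuses, where 0% of all genes were called and 0 members had an unadjusted p under 0.05 in edgeR; DESeq2 also called 0. In abnormal fetuses day 35 against day 30 gave 0 calls of 18 (3.51% of all genes, 1.63% higher and 1.88% lower; 10.8% without day 35 abnormal replicate 2), with 5 members at an unadjusted p under 0.05 and 1 call by DESeq2. Without day 35 abnormal replicate 2 FOXM1 fell (-2.54 ± 0.39 SE, adjusted p = 0.00343), and FOXN3 (1.09 ± 0.26 SE, adjusted p = 0.02575) and FOXL2 (4.91 ± 1.33 SE, adjusted p = 0.04014, all edgeR) rose. Without replicate 1 in its place the log2 fold change was 1.11 ± 0.36 SE for FOXM1 and 1.17 ± 0.15 SE for FOXK2. For FOXO3, FOXO4 and FOXP4 it was then -2.15 ± 0.51, -2.38 ± 0.50 and -1.8 ± 0.47 SE. Without replicate 2, FOXK2, FOXO3, FOXO4 and FOXP4 were at -0.47, 0.03, -0.52 and 0.22. The direction for FOXM1 thus turned on which library was kept, and each of these values rests on 1 day 35 abnormal library. Members below the filter had few counts in fetuses: FOXH1, a partner of SMAD proteins in nodal signalling, had 42 counts over 14 libraries, FOXI2 29, and FOXI1 and FOXP3 7 each. Of the FOXI2 counts, 22 were in day 30 normal fetuses, at 1.40 ± 0.467 CPM (SD, n = 3), and 0 in NF fetuses of either day. FOXR1 had no count in any of the 14 fetus libraries, which allows levels of up to 8.09 CPM at 3 counts in the shallowest library and 0.409 CPM in the deepest. FOXB2 was tested and not called, at 0 to 3.16 CPM.

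In embryos 6 members passed the filter among 6958 genes tested: FOXA3, FOXI1, FOXK2, FOXM1, FOXN3 and FOXR1. None of the 6 was called in any of 5 comparisons, where 1.11% of all genes were called for XIST-KO against WT (0.417% higher, 0.69% lower), 7.43% for WT+Kdm4A against WT (2.95% higher, 4.48% lower), 5.71% for WT against IVF (4.28% higher, 1.42% lower), and 0.0431% each, all higher, for XIST-KO and WT+Kdm4A against IVF. In the order just given, the members at an unadjusted p under 0.05 numbered 0, 0, 1, 1 and 0 in edgeR, and DESeq2 also called 0 in each. Expression varied widely within groups, with a biological coefficient of variation of 0.893 in embryos and 0.290 in fetuses. The median log2 fold change of all genes was 0.35 for WT+Kdm4A against WT and -0.23 for WT against IVF, so values are to be read relative to these.

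FOXM1 had 10.8 and 37.6 CPM in XIST-KO, 14.3 and 27.8 CPM in WT+Kdm4A, 5.96 and 15.2 CPM in WT and 4.54 and 29.5 CPM in IVF embryos. FOXK2 had 15.8 and 64.2 CPM in XIST-KO, 5.84 and 20.2 CPM in WT+Kdm4A, 8.53 and 13.2 CPM in WT and 8.10 and 17.1 CPM in IVF embryos. All groups overlapped for FOXM1, and XIST-KO lay above WT for FOXK2, without a call (1.88 ± 1.14 SE, adjusted p = 0.3793, edgeR). FOXN3 had 1.69 and 12.2 CPM in XIST-KO, 5.96 and 14.4 CPM in WT+Kdm4A, 7.57 and 15.2 CPM in WT and 2.91 and 7.48 CPM in IVF embryos. FOXA3 had no count in XIST-KO, 2.41 and 5.03 CPM in WT+Kdm4A, 0 and 0.966 CPM in WT and 0 and 0.981 CPM in IVF embryos. FOXI1, a factor of ionocytes in inner ear and kidney, had 0 and 0.312 CPM in XIST-KO, 0.559 and 0.963 CPM in WT+Kdm4A, no count in WT and 1.22 and 4.91 CPM in IVF embryos. WT and IVF embryos did not overlap for FOXI1, at least 12.2-fold lower in WT, with adjusted p = 0.1457 in edgeR. FOXR1, a maternal-effect gene in zebrafish, had no count in XIST-KO, 1.28 and 1.505 CPM in WT+Kdm4A, 0 and 0.644 CPM in WT and 0 and 3.31 CPM in IVF embryos, and was detected in 4 of 8 embryo libraries. FOXB1, FOXB2, FOXC1, FOXL2, FOXP2, FOXP3, FOXP4 and FOXS1 had no count in any embryo library.

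**Figure D5:**
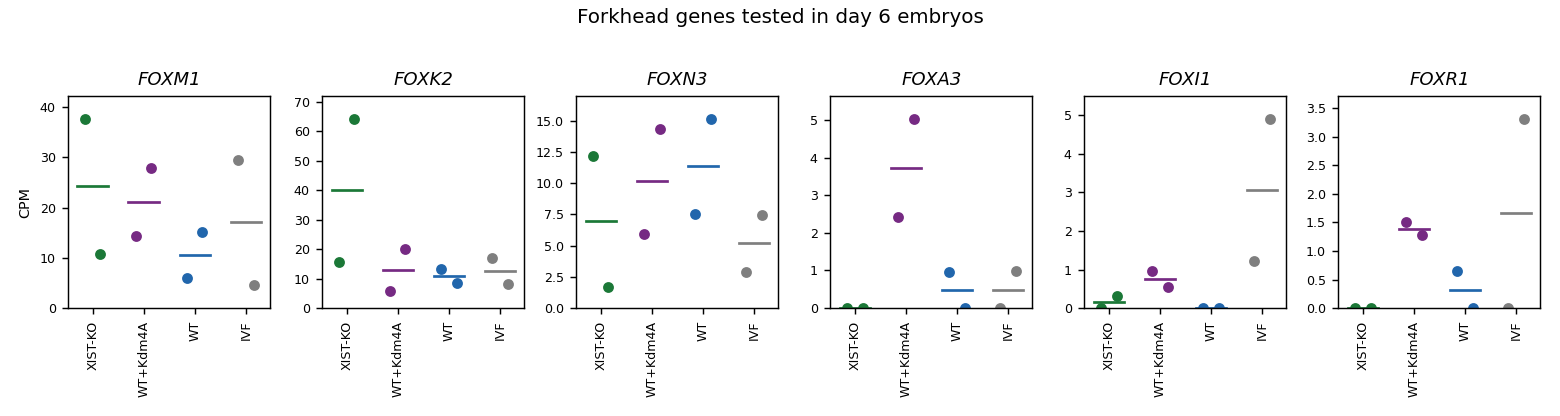
CPM (y axes, linear, from 0) of the 6 members tested in day 6 embryos, in each library of XIST-KO, WT+Kdm4A, WT and IVF; lines are group means. Replicates within a group often differ as much as the groups do, and no member was called.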

How the data were processed

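RNA-seq was analysed from 14 fetus and 8 embryo libraries. Per the submitters' processing notes, the authors used RSEM 1.2.4 and the build Sscrofa11.1 (susScr11); per the file headers, each deposited table gives an expected count and a TPM per transcript record. Not given in the sources used here: aligner, read filters, strand setting. Accessions without version placed 25305 of 65927 records (38.4%) on RefSeq genes (Sscrofa11.1), and expected counts were summed per symbol and rounded. Each stage was fitted as a whole in edgeR 4.0.16 (R 4.3.3) with a mean per group, filterByExpr, TMM scaling and quasi-likelihood testing, Benjamini-Hochberg adjusted at 0.05; SE is the log2 fold change divided by the root of F. CPM uses TMM-scaled library sizes. Alternatives were RLE size factors, no filter, a filter at 1 CPM in 2 libraries, DESeq2 1.42.0, limma 3.58.1 on log2(TPM + 1), a replicate block, only the compared groups, records matched with version, and each library left out. Every member with an adjusted p under 0.05 is named, and genes that are no member come only from the lists, up to 4 called genes a list by size of change. The code was tested on simulated data. Members and lists were chosen with earlier results of these data known. Tables and figures used Python 3.11.15, pandas 2.3.3, numpy 2.4.6 and matplotlib 3.10.9. Floors are 3 counts, and intervals and floors cover counting error only. No sequences were used here.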

Additional observations from a re-analysis of the deposited data

Results flagged for a closer look

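The effect of abnormal against normal cloned fetuses on FOXA2 differed between days: the day 35 effect minus the day 30 effect was -5.44 on the log2 scale (adjusted p = 0.0365, edgeR interaction term). FOXA2 had 8.30 and 15.4 CPM in day 30 abnormal and 0.913 to 2.21 CPM in day 30 normal fetuses, and 0 and 1.15 CPM in day 35 abnormal and 3.65 to 7.40 CPM in day 35 normal fetuses. The smaller day 35 abnormal library, with no count, has a floor of 8.09 CPM, and without it the difference was -5.13 ± 1.32 SE (adjusted p = 0.03187). The call was lost on leaving out either day 30 abnormal library or any normal library of either day, 8 of 14 libraries in all (-10.62 to -4.89 over all libraries left out), and with the replicate number as a block (-5.65, adjusted p = 0.07854).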

How the results depend on the processing

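Of 33 member calls, 8 held under every alternative that gave a value for the gene (records matched with version gave none for these 8): FOXA1, FOXA2, FOXB1 and FOXN2 in day 35 normal against NF, FOXA2 and FOXB1 in day 30 abnormal against NF, FOXB1 in day 30 normal against NF, and FOXE1 in day 30 abnormal against normal fetuses. Of the 33 calls, those that reversed were FOXB1 and FOXL2 in day 35 abnormal against NF fetuses, both -2.11 without day 35 abnormal replicate 1 and at most 7.73 and 7.48 without day 35 NF replicate 2. Some members not called with all libraries changed direction with the day 35 abnormal library left out. Without replicate 2 and without replicate 1, FOXK2 was at -0.53 and 1.11 for day 35 abnormal against normal fetuses. FOXM1 was at -2.54 and 1.11 for day 35 against day 30 abnormal fetuses, and at -1.99 and 1.65 for the difference of effects. Each of these log2 values rests on 1 day 35 abnormal library. Leaving out each library gave 1 to 4 called members for day 30 abnormal against normal, 2 to 7 at day 35, 1 to 11 for day 30 normal against NF, 4 to 10 at day 35, 2 to 9 for day 30 abnormal against NF, 0 to 13 at day 35, 0 to 5 for day 35 against day 30 in normal and in abnormal fetuses, and 0 to 5 for the difference of effects. NF between days and the 5 embryo comparisons stayed at 0.

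DESeq2 called 6 for day 35 abnormal against NF, 3 for day 35 against day 30 normal, 1 for day 35 against day 30 abnormal and 3 for the difference of effects. On log2(TPM + 1) the counts were 5 for day 35 abnormal against normal, 4 for day 30 normal against NF, 2 for each of the day comparisons of cloned fetuses and 4 for the difference of effects; this scale moves the median of all genes to -0.27 at day 30 and -0.32 at day 35 for abnormal against normal fetuses. With only the compared groups the counts were 5 and 1 for abnormal against normal at day 30 and day 35, 0 for day 35 abnormal against NF and 8 for day 35 against day 30 normal. Records matched with version hold 5 members and gave 0 calls, or 1 each for day 35 abnormal against normal, normal against NF and abnormal against NF. Between libraries with the same replicate number, deviations from the group means correlated at -0.072 to 0.148 over 31 fetus pairs and -0.31 to 0.093 over 12 embryo pairs. In groups of 2 libraries the deviations mirror each other, so such pairs repeat the same value. These correlations therefore cannot decide whether the numbers pair the samples. With the number as a block the counts were 1 for day 30 abnormal against normal and 3 for day 30 normal against NF. They were 0 for day 35 against day 30 normal and for the difference of effects. The causes were not tested. Depth limits day 35 abnormal replicate 2 to members above 8.09 CPM.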
